A study of Mus musculus with 24 samples.

Results

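The effect of adding Hdac3 to microplastic-exposed mouse oocytes was examined by setting exposed, Hdac3-overexpressing oocytes (PSMPs & OE-Hdac3) against oocytes of the control for culture (con-in vitro). These groups were chosen by their labels and make up 4 of the 12 deposited RNA columns, 2 libraries each, in a series of 24 samples. PSMPs are the microplastics of the study's title. The series also holds RNA libraries of oocytes exposed in culture (in vitro PSMPs, 2 libraries), oocytes given the histone deacetylase inhibitor SAHA (2), oocytes exposed in the animal (in vivo PSMPs, 2) and controls (con, 2). The difference between both in vivo PSMPs columns was smaller than sampling noise, so they were counted as 1 sample. Each library was made from 5 pooled oocytes by full-length cDNA amplification and transposase library preparation. The labels give neither the means of overexpression, nor the dose, nor whether the overexpressing oocytes were exposed in culture or in the animal, nor whether libraries of 1 group stem from different animals. An empty-vector control and overexpression without exposure were not analysed here. Exposure and overexpression therefore cannot be told apart in the comparison with con-in vitro.

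HDAC3 is a class I histone deacetylase. It works as the catalytic subunit of the NCoR and SMRT corepressor complexes, which remove acetyl groups from histones at the genes they bind. Opposing enzymes include KAT8, also called MOF, which acetylates lysine 16 of histone H4. The fully grown oocyte is largely silent in transcription and matures on stored mRNA, so a difference in its mRNA can reflect storage and decay as well as synthesis.

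The oocyte label was checked first. The summed level of 10 oocyte markers was 12935 and 15743 CPM (read counts scaled to normalised library size) in PSMPs & OE-Hdac3, against 9184 and 10197 CPM in con-in vitro. None of these 10 markers was at 0 over a whole group. Gdf9 was the largest part of the sum in PSMPs & OE-Hdac3, at 6090 and 8257 CPM, against 1319 and 2175 CPM in con-in vitro. Bmp15, the largest part in con-in vitro, went the other way, at 932 and 1178 CPM against 3921 and 3208 CPM. The summed level of 15 cumulus and granulosa cell markers was 42.4 and 46.9 CPM in PSMPs & OE-Hdac3 and 51.9 and 33.6 CPM in con-in vitro, with 3 and 8 of the markers at 0 in both libraries of the group. Most of this sum was Nr5a2, at 25.5 and 27.5 CPM in PSMPs & OE-Hdac3 and 39.2 and 29.2 CPM in con-in vitro. Amh, the granulosa hormone, was at 0 in all 4 libraries. A summed level of 18 theca, stroma, endothelium, blood and immune markers was 23.4 and 21.6 CPM in PSMPs & OE-Hdac3, against 10.1 and 23.8 CPM in con-in vitro. Of these, 7 and 14 were at 0 in both libraries. In such pooled samples, fewer cells of a type and less RNA per cell cannot be told apart.

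The con-in vitro libraries stood apart from all others in the make-up of their counts. Total counts were 9806958 and 7032473 in PSMPs & OE-Hdac3 and 6219784 and 6403283 in con-in vitro. At these depths 20957 and 20422 genes had a count in PSMPs & OE-Hdac3, against 11832 and 11640 in con-in vitro. A low number of detected genes was not particular to con-in vitro. The uncultured con libraries, with 30745496 and 35637689 counts, had 12316 and 12843 genes with a count. The 100 genes most abundant in con-in vitro held 6.03% and 4.55% of the counts in PSMPs & OE-Hdac3, against 52.1% and 52.8% in con-in vitro. The same 100 genes held between 3.73% and 5.74% in the other groups, uncultured controls included. They were chosen on con-in vitro, so a high share there was fixed by the choice. Taking each library's own 100 most abundant genes instead, con-in vitro replicate 1 had a share of 52.2% and replicate 2 one of 53.3%. PSMPs & OE-Hdac3 had 19.0% and 20.8% by that measure. The highest share outside con-in vitro was 36.1%, for SAHA replicate 1. Because of this difference in make-up, the scaling of the libraries matters to every direction given here. With TMM factors, which assume that most genes do not change, the median fitted log2 change over the 16736 genes tested was 0.69, and with plain library totals it was 2.18. Of 1073 genes called with TMM factors, that is with an adjusted p under 0.05, 414 were higher and 659 lower in PSMPs & OE-Hdac3, whereas library totals gave 4171 higher and 391 lower. Directions below are from TMM factors. List medians compare with the median of 0.69 over all genes, and list counts with 2.47% of all genes called higher and 3.94% called lower. That median includes 3835 genes at 0 in con-in vitro at their fitted changes. List medians given below with such genes set at a bound therefore do not compare with it. Over the 7560 genes with at least 10 counts in all 4 libraries, the median was -0.06, with 2.86% called higher and 8.36% lower. A list made up mostly of such genes is to be read beside these values. The part of these library differences in the results was not tested.

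**Figure D1:**
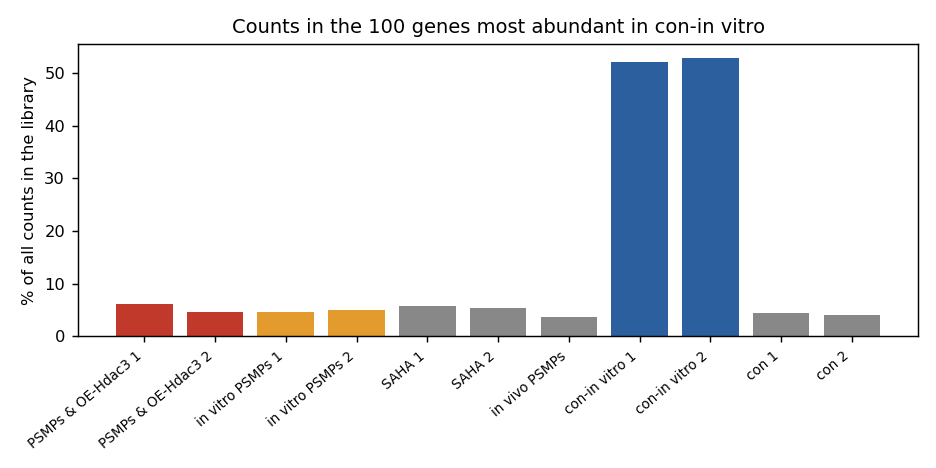
Share of all counts (% of the library) held by the 100 genes most abundant in con-in vitro, 1 bar per library, with the in vivo PSMPs columns merged. The genes were chosen on con-in vitro, so their high share there is by construction, and the bars of the other libraries, at 3.73% to 6.03%, are what the plot shows.

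Hdac3, on chromosome 18, was raised in the overexpressing oocytes, as the label states. It had 336 and 228 CPM in PSMPs & OE-Hdac3, against 26.7 and 23.8 CPM in con-in vitro. Both overexpressing libraries were above every other library of the series, where Hdac3 lay between 7.17 and 37.4 CPM. The fitted log2 change against con-in vitro was 3.48 ± 0.48 (SE, 2 libraries per group, adjusted p = 0.0025, edgeR's quasi-likelihood F test), which corresponds to 11.2-fold higher mean CPM. Hdac3 was thus far above the level of cultured controls, not brought to it. In vitro PSMPs had 15.3 and 9.37 CPM, below both con-in vitro libraries, but the log2 change of -1.03 between these groups did not pass (adjusted p = 0.14). Against in vitro PSMPs the log2 change in PSMPs & OE-Hdac3 was 4.51 ± 0.50 (adjusted p = 0.0084), a call that was lost without either overexpressing library or without in vitro PSMPs replicate 2 (highest adjusted p = 0.14). Without either overexpressing library, no gene was called against in vitro PSMPs, which holds for every such call given below.

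Trim21 showed the largest level of any gene that con-in vitro lacked. It encodes a cytosolic antibody receptor and ubiquitin ligase that sends antibody-bound proteins to the proteasome. Its counts gave 2398 and 1668 CPM in PSMPs & OE-Hdac3, against 0 in both con-in vitro libraries. In vitro PSMPs showed 7.70 and 6.22 CPM of it, and the level was at most 1.02 CPM in SAHA and con, and 0 in in vivo PSMPs. Counted against a floor of 3 counts over both con-in vitro libraries, Trim21 was at least 4764-fold higher in PSMPs & OE-Hdac3 (adjusted p = 0.0013). Against in vitro PSMPs the log2 change was 8.19 ± 1.10 (SE, adjusted p = 0.012), and this call was lost when any 1 of the 4 libraries was left out (highest adjusted p = 0.15).

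The Trim21 gene lies at chr7:102557921-102565486 on the minus strand (mm10), and its start is shown because Trim21 is known as an interferon-induced gene. The stretch from 100 bases before to 30 bases after the RefSeq start reads as follows, at chr7:102565453-102565582 of GRCm38.p6, with capitals at the interferon-response letters (GAAA, then NN, then GAAA), which begin at base 14 of the transcript.
Trim21: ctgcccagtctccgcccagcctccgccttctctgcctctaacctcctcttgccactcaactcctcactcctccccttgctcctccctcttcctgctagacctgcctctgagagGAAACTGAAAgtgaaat
These letters, searched on both strands, occur in 3.5% of the 27025 RefSeq promoter windows of 300 bases, so a match is a description only. Of 22 tested genes of innate sensing and the interferon response, 1 was called higher and 0 lower in PSMPs & OE-Hdac3. The background rate of higher calls over all genes was 2.47%. The called gene was Bst2, an interferon-induced membrane protein that tethers budding viruses, with 2.99 and 1.46 CPM in PSMPs & OE-Hdac3 and 0 in both con-in vitro libraries. Its rise, at least 5.21-fold, passed (adjusted p = 0.044) but was lost without any 1 of the 4 libraries, and in vitro PSMPs had more, 11.3 and 15.8 CPM. The median log2 change of the 22 genes was 0.53, or 0.02 with genes at 0 in con-in vitro set at their bound. None of 11 tested partners of Trim21 in protein degradation, such as ubiquitin and its conjugating enzymes, was called (edgeR). At an unadjusted p under 0.05 there were 3 higher and 2 lower, and DESeq2 called 3 higher. Among 25 other Trim ligases, 1 was higher and 3 were lower. Of the 25, 21 had at least 10 counts in all 4 libraries, where 2.86% of genes were called higher and 8.36% lower. Trim3 had 10.6 and 10.2 CPM in PSMPs & OE-Hdac3 and 0 in con-in vitro, at least 24.4-fold higher (adjusted p = 0.023). Trim59, Trim39 and Trim65 fell by 2.74, 2.89 and 5.89 on the log2 scale, and all 3 falls ended with library totals. Each of these 4 calls was lost without either overexpressing library, and those of the falls also without con-in vitro replicate 1. The list median of -0.26, or -0.74 with genes at their bound, turned to 1.22 with library totals.

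**Figure D2:**
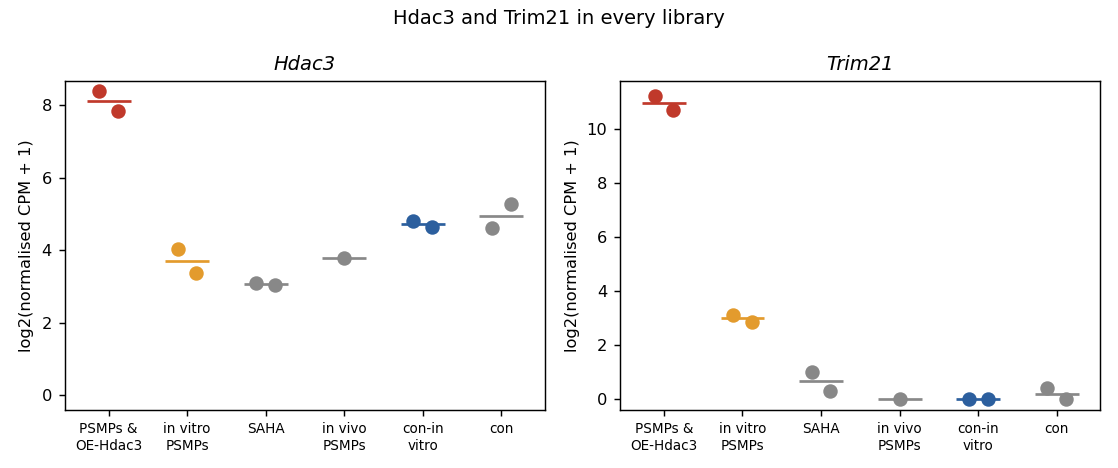
Levels of Hdac3 and Trim21 as log2(normalised CPM + 1) in each library, 1 point per library and a line at the group mean. Both overexpressing libraries lie above all others for both genes, and con-in vitro is at 0 for Trim21.

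The 5 genes whose levels were most like that of Trim21 over the 11 libraries were Galnt18, Rpl28-ps3, Lrrc20, Mmrn2 and Btbd18, with Pearson's r of log2(CPM + 1) between 0.977 and 0.987. These points share the contrast between 2 high libraries and 9 low ones, and the genes were picked for their r. Their levels stayed small beside that of Trim21. Lrrc20 had 8.98 and 6.002 CPM in PSMPs & OE-Hdac3 and 0 in con-in vitro (adjusted p = 0.089), and the other 4 were under 1.6 CPM in every library.

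Genes were then separated by detection. At least 10 counts in all 4 libraries were found for 7560 of the 55401 genes, which held 93.7% and 94.1% of the counts in PSMPs & OE-Hdac3 and 99.0% and 98.9% in con-in vitro. Of these 7560 genes, 848 (11.2%) passed an adjusted p of 0.05, against 6.41% of all genes tested. PSMPs & OE-Hdac3 was higher for 216 (2.86%) and lower for 632 (8.36%), against 2.47% and 3.94% of all genes tested. Of the 7560, 5281 (69.9%) had groups that did not overlap in CPM, called or not. The count of 848 dropped to 305 and 260 without PSMPs & OE-Hdac3 replicate 1 or 2, and with library totals the split was 2366 higher and 363 lower.

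The absence of a call does not show that a gene was at the cultured control level. For that, the 95% interval of the fold change was required to lie within a 2-fold difference in either direction, which 151 of the 7560 genes (2%) met, and none of the 151 was called. That left 6561 genes (86.8%) that were neither called nor shown to lie within 2-fold. The count of 151 fell to 8 and 6 without PSMPs & OE-Hdac3 replicate 1 or 2, and was 87 and 97 without con-in vitro replicate 1 or 2. Genes whose smallest count was exactly 10 (139 genes) had a median of 6.98 CPM in PSMPs & OE-Hdac3 and 5.86 CPM in con-in vitro. Those at 9, just outside the limit (140 genes), had 7.08 and 5.37 CPM.

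**Figure D3:**
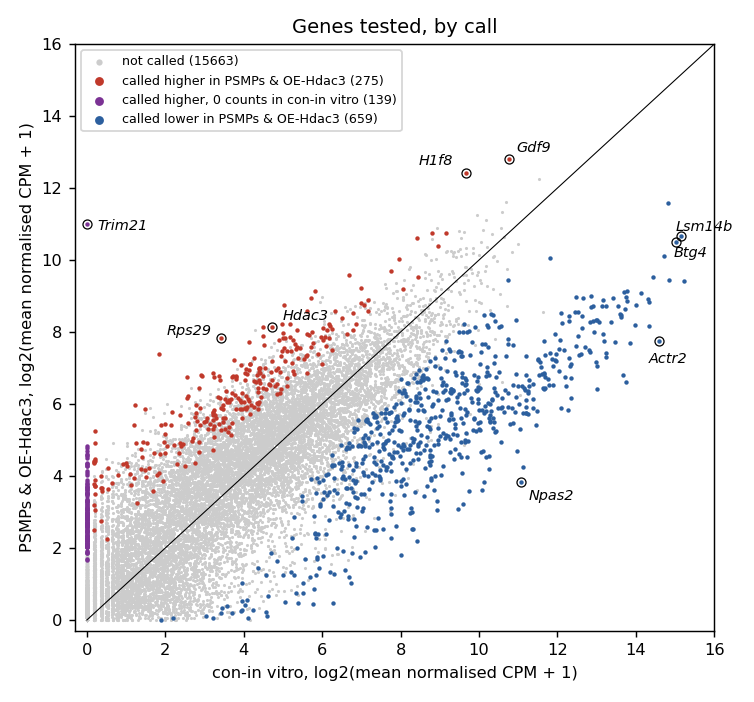
Mean level of each of the 16736 genes tested in PSMPs & OE-Hdac3 (vertical) and con-in vitro (horizontal), both as log2(mean normalised CPM + 1), coloured by call at an adjusted p of 0.05 with TMM factors. Of the genes called higher, 139 stand on the left edge at 0 counts in con-in vitro, and the 659 called lower form a band below the diagonal that reaches the most abundant con-in vitro genes.

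The genes called lower included some of the most abundant mRNAs of cultured controls. Actr2, the Arp2 subunit of the actin-nucleating Arp2/3 complex, had 273 and 154 CPM in PSMPs & OE-Hdac3, against 24956 and 24578 CPM in con-in vitro. Klhl9, a substrate adaptor of a cullin ubiquitin ligase, had 114 and 79.2 CPM, against 14529 and 12737 CPM. Nup98, a nuclear pore protein, had 86.4 and 134 CPM, against 13297 and 12948 CPM. These groups were separated by a wide gap in each case. The fitted log2 changes were -6.86 ± 0.65, -7.14 ± 0.40 and -6.89 ± 0.40 (SE, adjusted p = 0.00043, 0.00015 and 0.00015). Levels in in vitro PSMPs were near those of the overexpressing oocytes rather than those of cultured controls for Actr2 (104 and 148 CPM). For Klhl9 (219 and 275 CPM) and Nup98 (485 and 602 CPM) they were above the overexpressing oocytes and far below cultured controls. PSMPs & OE-Hdac3 was called lower than in vitro PSMPs for both genes, with log2 changes of -1.35 and -2.30. Uncultured con oocytes were likewise low, with 326 and 165 CPM for Actr2.

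Npas2 and Bhlhe41, both circadian regulators, were among the 10 largest falls. Npas2, a partner of the clock protein BMAL1, had 16.3 and 10.2 CPM in PSMPs & OE-Hdac3, against 2666 and 1646 CPM in con-in vitro. Its log2 change of -7.34 ± 0.65 was the largest fall that the naming rule took. Bhlhe41, a repressor in the same clock, had 15.3 and 7.002 CPM, against 879 and 1285 CPM. In vitro PSMPs were also low for both genes, at 24.4 and 28.1 CPM for Npas2 and 20.5 and 19.5 CPM for Bhlhe41. The other falls named by the rule were Zfp985, Ly96, Clmp, Foxn2 and Myef2, with log2 changes between -6.95 and -6.57. Of these 10 genes, Clmp alone lost its call without either overexpressing library, and all 10 were called lower with library totals.

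Of the 9 largest rises among genes with at least 10 counts in all 4 libraries, 4 were ribosomal protein genes or copies of them. Rps29, a small-subunit ribosomal protein, had 195 and 258 CPM in PSMPs & OE-Hdac3, against 6.82 and 12.6 CPM in con-in vitro. Cox8a, a subunit of cytochrome c oxidase, had 119 and 113 CPM, against 7.42 and 9.29 CPM. The groups did not overlap for either gene, which the naming rule required. Their log2 changes were 4.54 ± 0.59 and 3.79 ± 0.39 (SE, adjusted p = 0.0019 and 0.00051). Dbi, the acyl-CoA-binding protein, had 99.3 and 114 CPM, against 5.34 and 11.5 CPM. Polr2e, a subunit shared by the nuclear RNA polymerases, had 108 and 115 CPM, against 8.61 and 4.37 CPM. The other named rises were Rpl34-ps1, Rpp21, Ebpl, Rplp1 and Rps14, at log2 changes of 3.70 to 4.05. Polr2e and Rpp21 lost their calls without either overexpressing library, Polr2e also without con-in vitro replicate 2, and Rpl34-ps1 without PSMPs & OE-Hdac3 replicate 2.

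Among the genes whose interval lay within 2-fold of con-in vitro, the 8 most abundant were D10Wsu102e, Mdm4, Trim61, Anxa7, Mat2b, Aspm, Tsc22d1 and Pramef12. Mat2b, the regulatory subunit of the enzyme that makes S-adenosylmethionine, had 729.6 and 817 CPM in PSMPs & OE-Hdac3, against 834 and 798 CPM in con-in vitro. The levels in in vitro PSMPs were far above both, 3225 and 4000.0 CPM. The log2 change against con-in vitro was -0.08 (95% interval -0.70 to 0.55), and against in vitro PSMPs it was -2.22 ± 0.29 (SE, adjusted p = 0.011). Pramef12, a germline member of the PRAME family, had 471 and 651 CPM in PSMPs & OE-Hdac3, against 447 and 789 CPM in con-in vitro. In vitro PSMPs were far below both, with 70.6 and 91.2 CPM. Its log2 change was -0.14 (95% interval -0.93 to 0.66) against con-in vitro and 2.79 ± 0.38 (SE, adjusted p = 0.011) against in vitro PSMPs. Mat2b and Pramef12 were the 2 of these 8 genes that also differed from in vitro PSMPs. With library totals, all 8 were called higher in PSMPs & OE-Hdac3 than in con-in vitro, with log2 changes from 1.23 for Mdm4 to 1.67 for Anxa7.

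**Figure D4:**
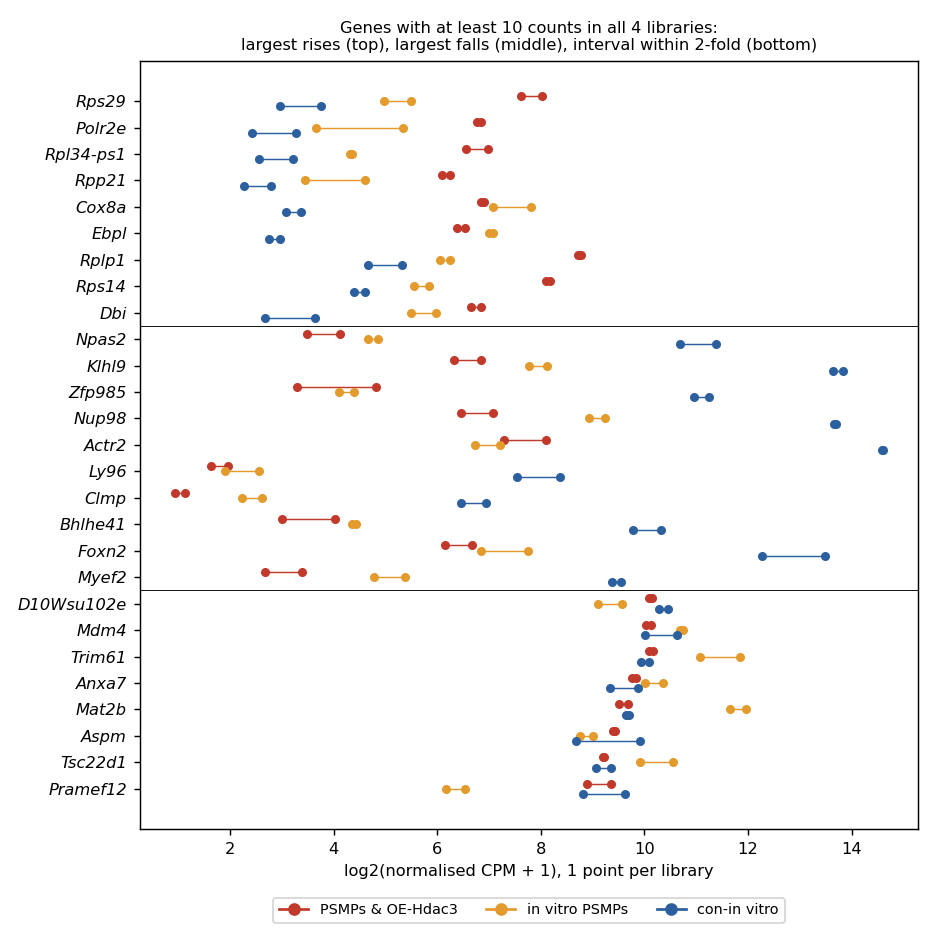
Level of each named gene with at least 10 counts in all 4 libraries, as log2(normalised CPM + 1), 1 point per library in PSMPs & OE-Hdac3, in vitro PSMPs and con-in vitro. From top to bottom are the 9 largest rises, the 10 largest falls and the 8 genes with an interval within 2-fold of con-in vitro, where Mat2b and Pramef12 stand apart in in vitro PSMPs.

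A count in PSMPs & OE-Hdac3 but none in con-in vitro was found for 9840 genes. Together they held 1.43% and 1.21% of the counts in PSMPs & OE-Hdac3, of which Trim21 alone made up 26.4% and 21.6%. Their median count summed over both overexpressing libraries was 4, and 4500 had 3 or fewer, so most were at the edge of detection. Unnamed gene models made up 48.8%. Of the 9840 genes, 7179 were also at 0 in both con libraries and 2993 in both in vitro PSMPs libraries. Having passed the filter on low counts through libraries of other groups, 3835 were tested. Of these, 139 (3.62%) were called higher, beside 2.47% of all genes tested. A gene of this class that was called had to be higher, so its direction carries nothing. The class was chosen on the con-in vitro counts that the test uses, so the rate beside 2.47% carries nothing either. The count of 139 dropped to 12 without either overexpressing library, and was 68 and 50 without con-in vitro replicate 1 or 2. The 577 genes with 1 count over both con-in vitro libraries lay just outside the class.

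After Trim21, the most abundant of the 139 called genes were moderate in level. Jtb, a small membrane protein, had 29.4 and 25.3 CPM in PSMPs & OE-Hdac3 and 0 in con-in vitro, at least 64.1-fold higher (adjusted p = 0.0024). Crym, a thyroid hormone-binding protein, had 22.5 and 30.3 CPM and 0 in con-in vitro, at least 61.9-fold higher (adjusted p = 0.0052). Wdr61, a subunit of the PAF1 elongation complex, had 23.6 and 19.7 CPM and 0 in con-in vitro, at least 50.7-fold higher (adjusted p = 0.0016). All 3 were also present after exposure in culture alone, where Jtb stood at 27.6 and 13.4 CPM, Crym at 14.3 and 10.6 CPM, and Wdr61 at 39.7 and 51.9 CPM. Nthl1, Mrpl13, Rpl17-ps3 and Adora2b completed the named set. All 4 lost their calls without either overexpressing library, and all but Rpl17-ps3 also without either con-in vitro library. In the opposite direction, 455 genes had counts in con-in vitro alone, 38 were tested and 1 was called lower. It was Gng5-ps, a pseudogene at 2.08 and 3.28 CPM in con-in vitro, at least 23.5-fold lower in PSMPs & OE-Hdac3 (adjusted p = 0.040), a call lost without any 1 of the 4 libraries.

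Few histone deacetylases other than Hdac3 were called. Of 17 tested deacetylases and sirtuins, Hdac3 was higher and Sirt6 and Hdac9 were lower, and Hdac9 lost its call with library totals and without either overexpressing library or con-in vitro replicate 2. Sirt6, a sirtuin that acts on histone H3, had 43.2 and 30.4 CPM in PSMPs & OE-Hdac3, against 1054 and 1684 CPM in con-in vitro. Its log2 change was -5.22 ± 0.51 (SE, adjusted p = 0.00045), with 18.7 and 10.0 CPM in in vitro PSMPs. Hdac1 had 6.57 and 2.27 CPM, against 0 in con-in vitro, and Hdac2 had 51.9 and 46.3 CPM, against 56.7 and 31.7 CPM. Hdac8 had 12.9 and 12.5 CPM, against 5.64 and 4.65 CPM. None of these class I partners passed (adjusted p = 0.12 for Hdac1, 0.90 for Hdac2 and 0.46 for Hdac8). The list median was 1.19 beside 0.69 for all genes. With genes at 0 in con-in vitro set at their bound the list median was 0.45, which does not compare with 0.69.

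Of 27 tested subunits of deacetylase corepressor complexes, 1 was called higher and 3 lower. The median log2 change was 0.13, beside 0.69 for all genes and -0.06 for genes with at least 10 counts in all 4 libraries. Of the 27, 22 had such counts. Without PSMPs & OE-Hdac3 replicate 1 or 2, 0 were called higher and 2 lower. Gatad2b, a NuRD scaffold, had 379 and 321 CPM in PSMPs & OE-Hdac3, against 6153 and 3964 CPM in con-in vitro, a log2 change of -3.85 ± 0.46 (SE, adjusted p = 0.0013). Sin3b, a SIN3 scaffold, fell by 3.46 and Sap30 by 2.01 on the log2 scale (adjusted p = 0.00049 and 0.0048), while Sap18 rose by 2.10 (adjusted p = 0.036). Sap30 was not called with library totals, nor without either overexpressing library. Sap18 and Sap30 are partners of SIN3, and Sap18 lost its call without either overexpressing library or without con-in vitro replicate 2.

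No member of the acetyltransferase complexes of KAT8 was called among 12 tested (edgeR). At an unadjusted p under 0.05 there were 1 higher and 1 lower, and DESeq2 called 1 higher and 2 lower. Kat8 had 152 and 172 CPM in PSMPs & OE-Hdac3, against 17.8 and 55.7 CPM in con-in vitro. The groups did not overlap, as for 69.9% of genes with at least 10 counts in all 4 libraries. The log2 change of 2.14 ± 0.98 did not pass (SE, adjusted p = 0.20). Of 15 other acetyltransferases, 4 were called lower and 0 higher, beside a background of 3.94% called lower. Of the 15, 13 had at least 10 counts in all 4 libraries, where 8.36% of genes were called lower. Of the 4, the coactivator Ncoa3 had 203 and 131 CPM in PSMPs & OE-Hdac3, against 4862 and 7631 CPM in con-in vitro, a log2 change of -5.23 ± 0.46 (SE, adjusted p = 0.00034). Ncoa1, Kat6b and Clock fell by 4.72, 3.99 and 2.49 on the log2 scale. The median of the 15 was -0.75, beside 0.69 for all genes and -0.06 for genes with at least 10 counts in all 4 libraries. The median of the 15 turned to 0.71 with library totals, under which Clock was not called. Clock also lost its call without either overexpressing library.

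Among 30 tested genes of DNA and histone methylation, 1 was called higher and 4 lower, beside 2.47% and 3.94% of all genes. Of the 30, 27 had at least 10 counts in all 4 libraries, where 2.86% of genes were called higher and 8.36% lower. Without PSMPs & OE-Hdac3 replicate 1 or 2, 0 were called higher and 3 lower. Uhrf1, which brings DNMT1 to hemimethylated DNA, had 457 and 386 CPM in PSMPs & OE-Hdac3, against 8920.0 and 6370.2 CPM in con-in vitro. The groups were far apart, with a log2 change of -4.18 ± 0.33 (SE, adjusted p = 0.00025). Dnmt3a, the de novo DNA methyltransferase of the growing oocyte, had 344 and 292 CPM, against 1348 and 1382 CPM (log2 change -2.10 ± 0.36, adjusted p = 0.0086). In vitro PSMPs had less Dnmt3a than either, 58.7 and 88.8 CPM, and PSMPs & OE-Hdac3 was higher than in vitro PSMPs by 2.11 ± 0.36 on the log2 scale (SE, adjusted p = 0.016). Kdm6b and Kmt2d, an H3K27 demethylase and an H3K4 methyltransferase, fell by 4.60 and 4.08 on the log2 scale. The list median was -0.48, beside 0.69 for all genes and -0.06 for genes with at least 10 counts in all 4 libraries. It turned to 1.01 with library totals, and the fall of Dnmt3a was not called there, nor without either overexpressing library.

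Of 75 tested cytosolic ribosomal protein genes, 23 were called higher and 0 lower, beside a background of 2.47% called higher. The 23 calls dropped to 8 without PSMPs & OE-Hdac3 replicate 1 or 2, and likewise to 8 without con-in vitro replicate 2. The fitted log2 change was above 0 for all 75, with a median of 2.67, beside 0.69 for all genes. With genes at 0 in con-in vitro set at their bound the list median was 2.64. Rplp1, a protein of the ribosomal stalk, had 421 and 439 CPM in PSMPs & OE-Hdac3, against 38.9 and 24.3 CPM in con-in vitro. Rps14 had 273 and 287 CPM, against 19.9 and 23.2 CPM, and Rpl41 had 291 and 302 CPM, against 32.0 and 29.2 CPM. The log2 changes of these 3 genes were 3.77 ± 0.50, 3.70 ± 0.42 and 3.27 ± 0.40 (SE, adjusted p = 0.0022, 0.00088 and 0.0014). For in vitro PSMPs, Rplp1 stood at 65.7 and 74.4 CPM, Rps14 at 56.1 and 45.6 CPM, and Rpl41 at 73.5 and 126 CPM. Against in vitro PSMPs, 26 of the 75 were called higher and 0 lower, beside a background of 1.85% called higher, with a list median of 3.03 beside 0.09 for all genes. Reads of ribosomal protein genes can be shared with their many processed copies, so the values of single genes are uncertain.

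Of 75 tested nuclear genes of oxidative phosphorylation, 12 were called higher than in cultured controls and 0 lower, beside a background of 2.47% called higher. The median log2 change was 2.00, beside 0.69 for all genes. The calls dropped to 4 and 3 without PSMPs & OE-Hdac3 replicate 1 or 2, and numbered 22 without con-in vitro replicate 1. Cycs, the electron carrier cytochrome c, had 90.3 and 112 CPM in PSMPs & OE-Hdac3, against 9.79 and 9.29 CPM in con-in vitro, a log2 change of 3.41 ± 0.43 (SE, adjusted p = 0.0016). Cox7a2 rose by 3.01 and Atp5l by 3.38 on the log2 scale (adjusted p = 0.0029 and 0.0058), and Atp5l lost its call without PSMPs & OE-Hdac3 replicate 2. For in vitro PSMPs, Cycs stood at 68.3 and 44.5 CPM and Cox7a2 at 122 and 186 CPM. Against in vitro PSMPs, 0 of the 75 were called higher and 1 lower. None of 13 tested genes encoded in mitochondrial DNA was called (edgeR), with 3 lower at an unadjusted p under 0.05 and 1 lower by DESeq2. Their median of -1.16, or -1.25 with genes at their bound, turned to 0.35 with library totals.

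Of 31 tested proteasome subunits, 4 were called higher and 0 lower, beside a background of 2.47% called higher. The median log2 change was 1.48, beside 0.69 for all genes. Psmb6, a catalytic core subunit, had 173 and 209 CPM in PSMPs & OE-Hdac3, against 49.0 and 31.7 CPM in con-in vitro (log2 change 2.24 ± 0.37, SE, adjusted p = 0.0069). Psmd2, of the regulatory particle, rose by 2.58 (adjusted p = 0.0068), and Psma4 and Psmb3 by 2.92 and 2.98. Leaving out PSMPs & OE-Hdac3 replicate 2 ended all 4 of these calls, leaving out replicate 1 ended those of Psma4 and Psmb3, and leaving out either con-in vitro library ended that of Psma4. Peroxide and glutathione enzymes were mixed, with 3 of 23 called higher and 1 lower, beside 2.47% and 3.94% of all genes. Prdx1 had 568 and 632 CPM, against 155 and 97.3 CPM, and Prdx2 had 384 and 375 CPM, against 96.4 and 61.5 CPM, while mitochondrial Prdx3 was lower at 45.3 and 53.7 CPM, against 588 and 439.6 CPM. The Prdx calls were lost without either overexpressing library or without con-in vitro replicate 2, and that of Prdx3 also without con-in vitro replicate 1 and with library totals. Gpx1 had 28.4 and 11.6 CPM in PSMPs & OE-Hdac3, against 0 and 0.273 CPM from 1 count in con-in vitro, a ratio of 146 (95% counting interval 26.9 to 5950).

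Of 31 tested genes of maternal mRNA storage and clearance, 8 were called lower and 0 higher, beside a background of 3.94% called lower. Of the 31, 30 had at least 10 counts in all 4 libraries, where 8.36% of genes were called lower. The 8 calls dropped to 4 and 3 without PSMPs & OE-Hdac3 replicate 1 or 2. Btg4, the adaptor that brings the CCR4-NOT deadenylase to maternal mRNA, had 1713 and 1550.2 CPM in PSMPs & OE-Hdac3, against 44922 and 27543 CPM in con-in vitro. Lsm14b, an RNA-binding protein of mRNA storage particles, had 1635 and 1249.8 CPM, against 21239.9 and 45012 CPM. The con-in vitro libraries were far higher for both genes, with log2 changes of -4.47 ± 0.43 and -4.52 ± 0.52 (SE, adjusted p = 0.00043 and 0.00096). In in vitro PSMPs, Btg4 had 5584 and 8226 CPM and Lsm14b had 61.7 and 131 CPM, so the overexpressing oocytes lay below in vitro PSMPs for Btg4 and above them for Lsm14b. Both of these differences passed, with log2 changes of -2.08 ± 0.38 and 3.91 ± 0.50 (SE, adjusted p = 0.021 and 0.011). Pan3 and Cpeb4, which act in poly(A) tail removal and in translational control, fell by 4.83 and 4.58 against con-in vitro, and Cpeb4 lost its call without either overexpressing library. The list median was -0.93 with TMM factors, beside -0.06 for genes with at least 10 counts in all 4 libraries. With library totals the list median was 0.58, and 5 were called higher and 6 lower.

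Oocyte genes were divided. Of 36 tested genes of oocyte identity, 4 were called higher and 1 lower, beside 2.47% and 3.94% of all genes. The median log2 change was 0.46, beside 0.69 for all genes and -0.06 for genes with at least 10 counts in all 4 libraries. Of the 36, 35 had such counts. Without PSMPs & OE-Hdac3 replicate 1 or 2 there were 3 higher and 0 lower. H1f8, the oocyte linker histone, had 5181 and 5819 CPM in PSMPs & OE-Hdac3, against 813 and 801 CPM in con-in vitro, a log2 change of 2.77 ± 0.27 (SE, adjusted p = 0.00043). Gdf9, a growth factor that the oocyte secretes to its cumulus cells, had 6090.3 and 8257 CPM, against 1319 and 2175 CPM (log2 change 2.04 ± 0.34, SE, adjusted p = 0.0081). Its partner Bmp15 was lower, with 932 and 1178 CPM, against 3921 and 3208 CPM (log2 change -1.76 ± 0.31, SE, adjusted p = 0.0099), a call lost without either overexpressing library and with library totals. In vitro PSMPs had 4401 and 6451 CPM of Bmp15 and 10813 and 12819 CPM of H1f8, above PSMPs & OE-Hdac3 for both. Against in vitro PSMPs, 0 of the 36 were called higher and 7 lower, beside a background of 2.98% called lower. Zp3, the sperm receptor of the zona pellucida, had 912 and 923 CPM, against 616 and 1706 CPM, with overlapping groups (adjusted p = 0.75).

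Of 42 tested genes of the meiotic cell cycle, 3 were called higher and 2 lower than con-in vitro, beside 2.47% and 3.94% of all genes. The median log2 change was 0.21, beside 0.69 for all genes and -0.06 for genes with at least 10 counts in all 4 libraries. Of the 42, 41 had such counts. Without PSMPs & OE-Hdac3 replicate 1 or 2 there were 1 higher and 1 lower. Wee2, the oocyte kinase that inhibits CDK1, had 256 and 309 CPM in PSMPs & OE-Hdac3, against 1436 and 1499 CPM in con-in vitro (log2 change -2.38 ± 0.31, SE, adjusted p = 0.0018). Aurkc, the germ-cell Aurora kinase, had 112 and 79.8 CPM, against 16.6 and 21.04 CPM (log2 change 2.35 ± 0.34, SE, adjusted p = 0.0032). Cks2, which binds CDK1, rose by 3.11, and Pde3a, the phosphodiesterase whose activity lets meiosis resume, fell by 1.91 on the log2 scale (adjusted p = 0.016 and 0.029). Both calls were lost without either overexpressing library, and that of Pde3a also without either con-in vitro library and with library totals. In spindle and cortical actin genes, 1 of 28 was called higher and 4 lower, with a median of 0.26. Of the 28, 25 had at least 10 counts in all 4 libraries, where 2.86% of genes were called higher and 8.36% lower. Without PSMPs & OE-Hdac3 replicate 1 or 2, 3 and 2 were called, all lower. Beside Actr2, the small GTPase Rhoa had 72.9 and 46.8 CPM, against 1637 and 1752 CPM (log2 change -4.82 ± 0.39, SE, adjusted p = 0.00028). Actb and Myh9, a cytoplasmic actin and a non-muscle myosin, fell by 4.18 and 3.43 on the log2 scale. Both calls were lost without PSMPs & OE-Hdac3 replicate 2, and that of Myh9 also without replicate 1.

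In the p53, checkpoint and apoptosis list, 2 of 26 were called lower and 0 higher, beside 3.94% and 2.47% of all genes. The median log2 change was 0.16, beside 0.69 for all genes and -0.06 for genes with at least 10 counts in all 4 libraries. Of the 26, 16 had such counts. Bcl2l1, an inhibitor of apoptosis, passed only just (adjusted p = 0.0498) and lost its call without either overexpressing library, without con-in vitro replicate 2 and with library totals. Without PSMPs & OE-Hdac3 replicate 2 the list held 0 calls. Cdkn1b, the cyclin-dependent kinase inhibitor p27, had 62.8 and 42.4 CPM in PSMPs & OE-Hdac3, against 2271 and 2435 CPM in con-in vitro, a log2 change of -5.48 ± 0.70 (SE, adjusted p = 0.0018), lost without PSMPs & OE-Hdac3 replicate 2. In vitro PSMPs had less, 2.76 and 5.17 CPM, and PSMPs & OE-Hdac3 was higher than in vitro PSMPs by 3.73 ± 0.66 on the log2 scale (SE, adjusted p = 0.018). In the endoplasmic reticulum list, 1 of 24 was called higher and 3 lower, which became 0 higher and 2 lower without PSMPs & OE-Hdac3 replicate 1 or 2. Of the 24, 22 had at least 10 counts in all 4 libraries, where 2.86% of genes were called higher and 8.36% lower. Canx, a lectin chaperone, had 146 and 144 CPM, against 4773 and 3135 CPM. Eif2ak3, the stress kinase PERK, had 44.2 and 14.7 CPM, against 1912 and 1121 CPM. The libraries of con-in vitro were above both overexpressing libraries for both genes, while 69.9% of genes with at least 10 counts in all 4 libraries had no overlap. Their log2 changes were -4.77 ± 0.45 and -5.68 ± 0.62 (SE, adjusted p = 0.00043 and 0.00072).

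Calls in the remaining metabolic lists were few. Of all genes, 2.47% were called higher and 3.94% lower. Of genes with at least 10 counts in all 4 libraries, 2.86% were called higher and 8.36% lower. None was called of 14 glycolysis, 19 tricarboxylic acid cycle and 23 nucleotide and serine synthesis genes tested (edgeR). At an unadjusted p under 0.05, 2, 5 and 2 of them were higher and none was lower, and DESeq2 called 2, 5 and 1 higher. In fatty acid oxidation 2 of 19 were lower, among them Acsl4, which activates long polyunsaturated fatty acids, with 33.2 and 23.9 CPM, against 431 and 558 CPM (adjusted p = 0.00051). In core autophagy 1 of 25 was higher and 1 lower, Atg14 having 105 and 104 CPM, against 998 and 608 CPM (adjusted p = 0.0013, lost without PSMPs & OE-Hdac3 replicate 2). Of the cumulus and granulosa markers, 12 were tested and none was called, with 1 higher at an unadjusted p under 0.05 and none by DESeq2. Of 7 tested markers of theca, stroma, endothelium and blood, Pecam1 was called higher, with 11.0 and 14.1 CPM, against 2.08 and 0.273 CPM (adjusted p = 0.039, lost without either overexpressing library or con-in vitro replicate 2), and in vitro PSMPs had 49.3 and 67.1 CPM.

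**Figure D5:**
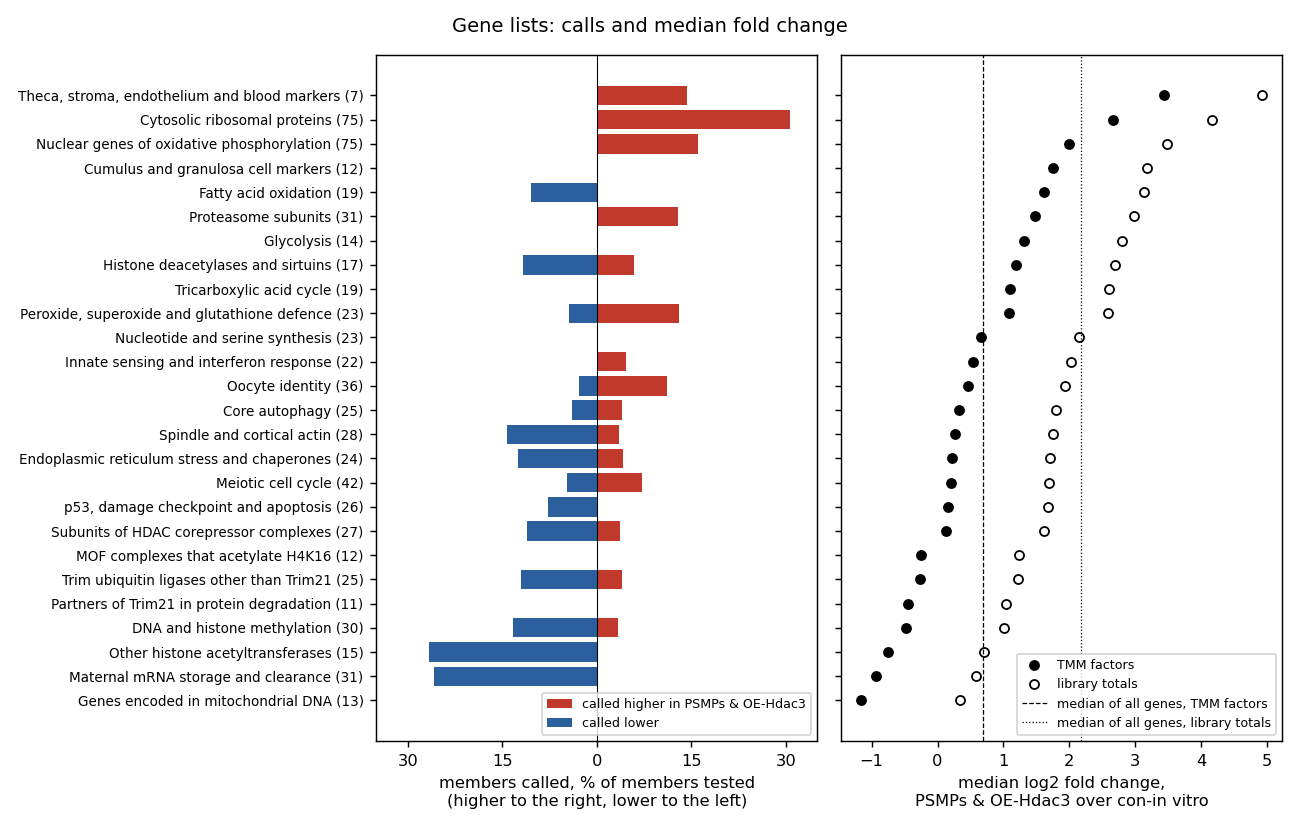
Left, share of tested members (%) of each gene list called higher (right of 0) or lower (left of 0) in PSMPs & OE-Hdac3 against con-in vitro, with the number tested in brackets. Right, median fitted log2 change of each list with TMM factors (filled) and library totals (open), with lines at the medians of all genes, 0.69 and 2.18; the 7 lists with a filled point below 0 have an open point above 0.

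Whether overexpression brought exposed oocytes nearer to cultured controls was also looked at over whole libraries. Over the 16736 genes, Pearson's r of log2(CPM + 1) between PSMPs & OE-Hdac3 and con-in vitro libraries was 0.815 to 0.825 (4 pairs). Between in vitro PSMPs and con-in vitro libraries it was 0.734 to 0.783 (4 pairs). The ranges do not overlap, but they use the same con-in vitro libraries and carry no test. Both ranges lay below the r of 0.881 between the 2 con-in vitro libraries, and the overexpressing libraries, at 0.985 with each other, were most like in vivo PSMPs, at 0.903 to 0.911. Their r with in vitro PSMPs was 0.828 to 0.878. Over the 7560 genes with at least 10 counts in all 4 libraries, r with con-in vitro was lower. There it was 0.607 to 0.636 for PSMPs & OE-Hdac3 and 0.466 to 0.579 for in vitro PSMPs. The r between the 2 con-in vitro libraries was 0.880 over these genes. Over the 16736 genes, the median absolute difference in log2(CPM + 1) between PSMPs & OE-Hdac3 and con-in vitro was 0.93 to 0.96. Between in vitro PSMPs and con-in vitro it was 1.06 to 1.17. In the fit, 1073 genes (6.41%) differed between PSMPs & OE-Hdac3 and con-in vitro, and 2570 (15.4%) between in vitro PSMPs and con-in vitro, where 8.57% of all genes were called higher and 6.78% lower. These counts share the con-in vitro libraries, were not tested against each other, and fell to 328 and 284 of 1073 without 1 overexpressing library, and to 1126 and 1096 of 2570 without 1 in vitro PSMPs library.

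Set directly against in vitro PSMPs, PSMPs & OE-Hdac3 differed for 808 genes (4.83%), of which 309 were higher and 499 lower. With library totals the split was 548 higher and 306 lower. Of the rises, Rpl26 had 187 and 147 CPM in PSMPs & OE-Hdac3, against 2.51 and 1.86 CPM in in vitro PSMPs. Con-in vitro was as low, at 3.26 and 1.91 CPM, so Rpl26 was called higher in both contrasts. Of the falls, Idi1, an enzyme of sterol and isoprenoid synthesis, had 1.69 and 1.91 CPM, against 57.6 and 136 CPM in in vitro PSMPs. Its con-in vitro levels were 6.53 and 5.19 CPM. Bmp5, a secreted growth factor, had 5.27 and 6.55 CPM, against 182 and 284 CPM in in vitro PSMPs. Its con-in vitro levels were 5.64 and 0.546 CPM. The overexpressing libraries were far below in vitro PSMPs for both genes. They lay below both con-in vitro libraries for Idi1 and overlapped with them for Bmp5, and neither gene was called against con-in vitro (adjusted p = 0.21 for Idi1 and 0.45 for Bmp5). Rpl36a, Pnpla3, Zfp735 and Prrg1 were the other named genes. Leaving out either overexpressing library ended every call in this contrast (edgeR), with 1738 and 1893 genes at an unadjusted p under 0.05, and 241 and 1 were called without in vitro PSMPs replicate 1 or 2.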

How the data were processed

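The authors deposited raw RNA counts, whole reads for each of 55401 genes. Build mm10 and tools that include fastp 0.12.4, HISAT2 and featureCounts are named in the submitters' processing notes, but the step that made the counts is not given in the sources used here. CUT&Tag samples of the series were not analysed here. Fits were made with edgeR 4.0.16, which builds on limma 3.58.1, under R 4.3.3, and DESeq2 1.42.0 served as an alternative. edgeR's expression filter (minimum count 10) on the 12 columns left 16736 genes. The 2 in vivo PSMPs columns were merged (chi-square over degrees of freedom 0.444, against 16.5 in PSMPs & OE-Hdac3 and 75.7 in con-in vitro), which left 11 libraries.

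Libraries were scaled by TMM (1.57 and 1.57 in PSMPs & OE-Hdac3, 0.542 and 0.572 in con-in vitro), and CPM values are on this scale. All groups were fitted together with robust quasi-likelihood dispersion (5 residual degrees of freedom, biological coefficient of variation 71.9%). Each contrast had edgeR's quasi-likelihood F test, adjusted by the Benjamini-Hochberg method over all genes tested, with 0.05 as threshold. Standard errors and 95% intervals were derived by dividing log2 changes by the root of F. Where all libraries of a group lacked a gene, its bound was set against 3 counts over that group, and Gpx1, with 1 count, has a 95% counting interval instead. The counting interval and the floors cover counting error only. P-values rest on a spread between libraries that was estimated over all groups together. Since the labels do not say that libraries came from separate animals, this spread may be technical.

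The members and the 26 gene lists (727 of 747 genes in the file) were chosen with earlier results of these data known. Named genes, unnamed gene models left out, were the 10 largest called rises and falls without overlap among genes with at least 10 counts in all 4 libraries, the 8 most abundant called genes at 0 in con-in vitro, called genes at 0 in PSMPs & OE-Hdac3, and the 8 most abundant genes with an interval within 2-fold. To these were added up to 4 called members of each list, Hdac3, Trim21 and marker genes, the 5 largest rises and falls against in vitro PSMPs, and the 5 genes most like Trim21. Some genes that the rule takes are not reported here. Promoter sequence was taken from RefSeq, build GRCm38.p6. All 11 libraries were also simulated from a common mean per gene, with changes put into PSMPs & OE-Hdac3 alone. The changed genes were drawn from those with higher expected counts. Calls were made for 9 of 100 genes changed 4-fold, 59 of 100 changed 16-fold and 6 of 16536 left unchanged. The simulation lacked the different make-up of con-in vitro counts, so these rates may not hold for the real comparison. Replicate numbers did not pair the libraries.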

Additional observations from a re-analysis of the deposited data

How the results depend on the processing

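With 2 libraries per group and a biological coefficient of variation of 71.9%, changes well above 4-fold were often needed for a call, and con-in vitro had the fewest counts, so a gene at 0 there may lie below 0.43 CPM over the group. Against con-in vitro, Hdac3 and Trim21 kept direction and call under every alternative run. With 1 library left out, the log2 change of Hdac3 was 3.37 to 3.89. Trim21 was at 0 in con-in vitro, so its fitted change is not an estimate and only the bound of at least 4764-fold is given. Against in vitro PSMPs, both genes lost their calls in some of these runs, as given above. Counts of calls moved, and the cause was not tested. In the values that follow the order is PSMPs & OE-Hdac3 against con-in vitro, its genes with at least 10 counts in all 4 libraries, its genes at 0 in con-in vitro, PSMPs & OE-Hdac3 against in vitro PSMPs, and in vitro PSMPs against con-in vitro. DESeq2's Wald test called 3082, 1872, 679, 2592 and 4633. A test against a log2 change of 1 called 577, 479, 62, 137 and 1568. With the in vivo PSMPs columns as 2 libraries the calls were 2256, 1385, 631, 1489 and 3917. Library totals gave 4562, 2729, 1279 and 4231 in the comparisons with con-in vitro, and kept 800 of the 1073 calls.

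For genes at 0 in con-in vitro, a minimum count of 50 gave 272 and a fit to only the 4 libraries gave 13. That fit gave 5491 against in vitro PSMPs, and a fit to only genes with at least 10 counts in all 4 libraries gave 1473 there. Genes within 2-fold numbered 94 with library totals, 276 with only the 4 libraries and 327 with in vivo PSMPs as 2 libraries. With 1 library left out, in the same order, the calls ranged over 284 to 1255, 260 to 793, 12 to 68, 0 to 241 and 1096 to 2850, and genes within 2-fold over 6 to 97. The remaining library of such a group borrows its spread from the rest. The replicate numbers did not pair the libraries (correlation of deviations -0.04 and -0.06), and a replicate block gave 709, 40 and 537 calls in all genes, in genes at 0 and against in vitro PSMPs. Library totals turned D10Wsu102e to 1.24, Mdm4 to 1.23, Mat2b to 1.42, Aspm to 1.49, Tsc22d1 to 1.48 and Pramef12 to 1.34 on the log2 scale, all called higher. Among the other values of named genes and lists, 1836 stayed the same, 214 lost the call, 43 gained it and 173 moved. The 1836 include genes that stayed uncalled and lists whose count of calls was equal or close. For lists, neither the direction nor the members called were compared.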
